A study of Mus musculus with 6 samples.

Results

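PROLIF-only distal regions were stretches of open chromatin, away from annotated promoters, that were called in every library of proliferating neural stem cells and in no library of the same kind of culture after 1 day of differentiation. They were found by merging the peaks of 6 ATAC-seq libraries on the 19 autosomes wherever they overlapped by 1 bp or more. Kept were regions with a peak in all 3 proliferating (PROLIF) libraries and in none of the 3 early differentiating (DIFF) libraries, whose nearest edge lay over 3 kb and up to 100 kb from any transcript start of GENCODE M21 on GRCm38. Of 116783 merged regions, 1535 met this rule, which is 2.02% of the 76042 distal ones. The members were thus chosen by the authors' peak calls in this contrast, so their presence in PROLIF and absence in DIFF is how they were chosen and not a result.

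ATAC-seq uses a transposase that cuts and tags open DNA. The cultures were neural stem cells from the subependymal zone (SEZ) of adult C57BL/6J mice, 10 weeks of age in the labels. All 6 libraries came from *Srr2* del/del mice, in which CRISPR-Cas9 had removed both copies of a *Sox2* enhancer that lies 3′ of the gene. Wild-type libraries were not analysed here. PROLIF cultures (n = 3, replicates 1, 2 and 4) had 2 days in vitro on Matrigel with FGF. DIFF cultures (n = 3, replicates 1, 2 and 4) had the same 2 days followed by 1 day without mitogens and with 2% fetal bovine serum. Loss of mitogen, serum and the additional day cannot be told apart. The methods describe deletion mice from 2 founder strains, without tying a library to a strain.

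Distal open regions are commonly enhancers, short stretches where transcription factors bind and from which they act on a promoter that may lie far away. Enhancers are known to be more particular to a cell state than promoters. AP-1 factors, dimers of FOS and JUN proteins, bind such regions and are induced by growth factors through the ERK pathway, which FGF activates in neural stem cells. E-box motifs are bound by basic helix-loop-helix (bHLH) factors, among them the proneural factors.

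The lists held between 60006 and 88039 peaks. The background pileup, recovered from the fold and p of each peak and standing for depth, lay between 2.85 and 3.63 reads in 5 libraries and was 6.01 reads in DIFF replicate 4. Promoter peaks lay at 23 to 25 of 25 neural stem cell marker genes per library, and at 17 of 18 astrocyte marker genes in each library. They also lay at 21 to 23 of 23 early neuron marker genes. Of 22 oligodendrocyte lineage genes 14 to 18 had one, with none in any library at *Enpp6*, *Mag*, *Mobp* or *Sox10*. Of 15 microglial marker genes 4 to 6 had one, and the promoters of *Cx3cr1*, *Ptprc*, *Spi1* and *Trem2* had none in any library. Of 17 endothelial and pericyte genes 6 to 10 had one, with none at *Cdh5*, *Cldn5* or *Pecam1*. Of 12 fibroblast and meningeal genes 6 to 8 had one.

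Of the 10 regions whose lowest rank over the PROLIF libraries was highest, 9 are shown first, because they are the strongest members. For each, 101 bases of the GRCm38 plus strand (RefSeq sequence) are centred on the summit of the best-ranked peak and named by the nearest protein-coding start. Capitals mark the AP-1 motif TGAGTCA and the E-boxes CAGATG and CAGCTG, read on either strand. The region second in rank is not printed.
*Bcr* (chr10:75170623-75170723, plus strand): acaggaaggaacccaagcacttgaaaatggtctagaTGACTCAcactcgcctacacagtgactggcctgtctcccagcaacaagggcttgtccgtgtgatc
*Tenm4* (chr7:95853610-95853710, plus strand): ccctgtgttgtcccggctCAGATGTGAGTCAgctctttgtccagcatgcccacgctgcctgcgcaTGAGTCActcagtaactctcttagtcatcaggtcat
*Col22a1* (chr15:72208149-72208249, plus strand): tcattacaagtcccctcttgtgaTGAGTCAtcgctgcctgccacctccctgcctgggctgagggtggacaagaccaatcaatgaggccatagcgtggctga
*Dst* (chr1:34184415-34184515, plus strand): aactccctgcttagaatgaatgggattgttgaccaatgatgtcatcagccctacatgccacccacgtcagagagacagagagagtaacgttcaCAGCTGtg
*Agbl1* (chr7:76177659-76177759, plus strand): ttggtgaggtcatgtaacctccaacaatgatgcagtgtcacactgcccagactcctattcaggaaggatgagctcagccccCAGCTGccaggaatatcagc
*Gnaz* (chr10:74952932-74953032, plus strand): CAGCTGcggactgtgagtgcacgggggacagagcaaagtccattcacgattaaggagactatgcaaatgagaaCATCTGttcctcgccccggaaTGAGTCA
*C1d* (chr11:17469010-17469110, plus strand): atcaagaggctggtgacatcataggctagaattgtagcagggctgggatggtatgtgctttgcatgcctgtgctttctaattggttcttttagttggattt
*Shisa2* (chr14:59729444-59729544, plus strand): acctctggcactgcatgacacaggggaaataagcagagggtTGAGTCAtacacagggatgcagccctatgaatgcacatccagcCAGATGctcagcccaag
*Mrap2* (chr9:87115569-87115669, plus strand): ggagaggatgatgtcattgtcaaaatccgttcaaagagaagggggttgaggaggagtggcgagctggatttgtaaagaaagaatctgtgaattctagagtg
An AP-1 motif stood in 5 of these 9 windows, those at *Bcr*, *Tenm4*, *Col22a1*, *Gnaz* and *Shisa2*. Over all members the share in windows of this length was 19.9%, and these 9 were picked by rank. The window at *Tenm4* held 2 AP-1 motifs, and the first of them adjoined a CAGATG E-box. The windows at *C1d* and *Mrap2* held neither AP-1 nor E-box motifs.

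The highest-ranked region lay in an intron of *Bcr* at chr10:75170320-75170941. It was only just distal, 3024 bp from the nearest transcript start, which was one of *Bcr*. Its fold enrichment over the local background was 16.6, 12.3 and 12.9 in PROLIF replicates 1, 2 and 4. The region next in rank was intergenic at chr18:49480002-49480405, 275162 bp from the start of *Dtwd2*, with folds of 18.5, 13.2 and 12.8. Both were high in each PROLIF library by the way they were ranked. The region at *Tenm4*, a teneurin that acts in neuronal connectivity, was intergenic at chr7:95853394-95853978, 317268 bp from its nearest start. Its folds were 14.4, 10.8 and 13.2. Within *Dst*, which encodes the cytoskeletal linker dystonin, the intronic region at chr1:34184214-34184696 had folds of 8.54, 8.18 and 8.64. The region at chr14:59729206-59729700 was nearest to *Shisa2*, an inhibitor of FGF and Wnt receptor maturation, but lay in an intron of *Atp8a2*. Its folds were 14.6, 10.7 and 9.88.

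Of all 116783 merged regions 1.77% were PROLIF-only and 3.52% DIFF-only. The reverse rule gave 3117 DIFF-only distal regions, 4.10% of the distal ones. These serve below as a comparison, together with 19672 constant distal regions that had a peak in all 6 libraries. Among distal regions with a peak in all 3 PROLIF libraries, 1535 had a peak in no DIFF library, 1366 in 1, 2172 in 2 and 19672 in 3.

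Peaks were compared by percentile, the rank of a peak by its −log10 p within its own list, where 100 is the strongest. The median percentile of the members was 48.0 in PROLIF replicate 1, 33.7 in replicate 2 and 31.0 in replicate 4, so the median lay below the middle of each list. The median fold was 5.71, 4.57 and 4.42, and the highest fold of any member was 18.5, 14.2 and 13.3. The middle 90% of members spanned 3.27 to 10.8, 3.05 to 8.27 and 3.12 to 7.97. The pileup, the number of overlapping fragments at the summit, had medians of 23, 18 and 17. Replicate 1, whose list was the longest of the PROLIF lists, was thus the highest by each of these measures. Across members the percentiles of any 2 PROLIF libraries had a Pearson r between 0.573 and 0.611 and a Spearman coefficient between 0.512 and 0.599. This is a description over 1535 regions, which are not independent replicates.

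**Figure D1:**
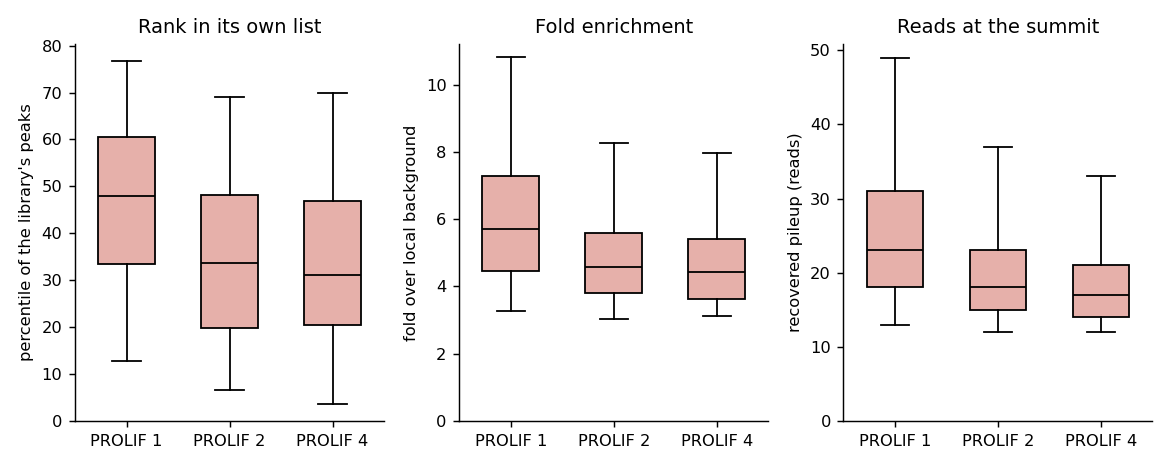
Percentile within the list, fold enrichment and pileup in reads (y axes) of the 1535 PROLIF-only distal regions in PROLIF replicates 1, 2 and 4 (x axes); boxes span the middle 50% with the median as a line, and whiskers the middle 90%. Replicate 1 is highest, with medians of 5.71, 4.57 and 4.42 for fold enrichment and 48.0, 33.7 and 31.0 for percentile.

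The lowest percentile over the 3 PROLIF libraries had a median of 23.7, against 21.8 for the DIFF-only regions in their own libraries and 44.2 for constant regions over all 6. The highest value was 85.3, and 188 members (12.2%) were above 50. The median of the same measure was 25.2 for regions with a peak in 1 DIFF library, 28.6 for those with 2 and 52.6 for those with all 3. At the lower limit of 3 kb, regions at *Arhgap24* (3002 bp, percentiles 35.3, 33.7 and 20.4) and *Otol1* (3005 bp) were kept. Those at *Lurap1* (2990 bp, percentiles 30.2, 16.6 and 41.0) and *Dlg1* (2984 bp) were too near a start and left out. At the upper limit, *Dab1* (99751 bp) and *Plxna2* (99619 bp) were kept, and *Gap43* (100006 bp) and *Efna5* (100279 bp) left out. Before the distance limits there were 2068 PROLIF-only regions, of which 411 were nearer than the lower limit and 122 farther than the upper.

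The number of members depended on single lists, as it must when a peak is required or barred in each. Without PROLIF replicate 2 it was 2327, without PROLIF replicate 4 it was 2959 and without DIFF replicate 4, the library with the highest background, it was 2308.

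Members were short. Their merged width had a median of 372 bp, 16 were over 1 kb, and together they covered 622.5 kb. The summits of the 3 libraries lay a median of 60 bp apart, and 76.4% of members had them within 100 bp. GC content was 48.9%, against 49.6% in DIFF-only and 51.3% in constant regions, and CpG dinucleotides numbered 1.13, 1.16 and 1.75 per 100 bp.

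Introns held 759 members, 49.4% (95% exact binomial interval 46.9 to 52.0), and 729 were intergenic, 47.5% (45.0 to 50.0). The remaining 47, or 3.06%, had their summit in an exon, of which 18 were in untranslated regions, 15 in coding sequence and 14 in noncoding transcripts. The intronic share was 56.2% (54.5 to 58.0) in DIFF-only regions and 49.0% in constant regions. Such intervals cover counting error only, since regions of 1 set of libraries are not replicates.

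The median distance to any transcript start was 16766 bp, against 15077 bp and 15225.5 bp in the DIFF-only and constant regions. To the nearest protein-coding start it was 45572 bp, against 36758 bp and 37086.5 bp. As many as 431 members (28.1%) lay over 100 kb from a protein-coding start while lying within 100 kb of some other start, and in the other sets 22.6% and 22.4% did. The nearest start of any kind belonged to a protein-coding gene for 47.5% of members, to a processed pseudogene for 16.4% and to a lincRNA, a long intergenic noncoding RNA, for 15.5%. In DIFF-only regions these shares were 52.7%, 13.3% and 11.5%. Members inside a protein-coding gene numbered 695 in 607 genes, and that gene was also the one with the nearest protein-coding start in 80.0% of cases.

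**Figure D2:**
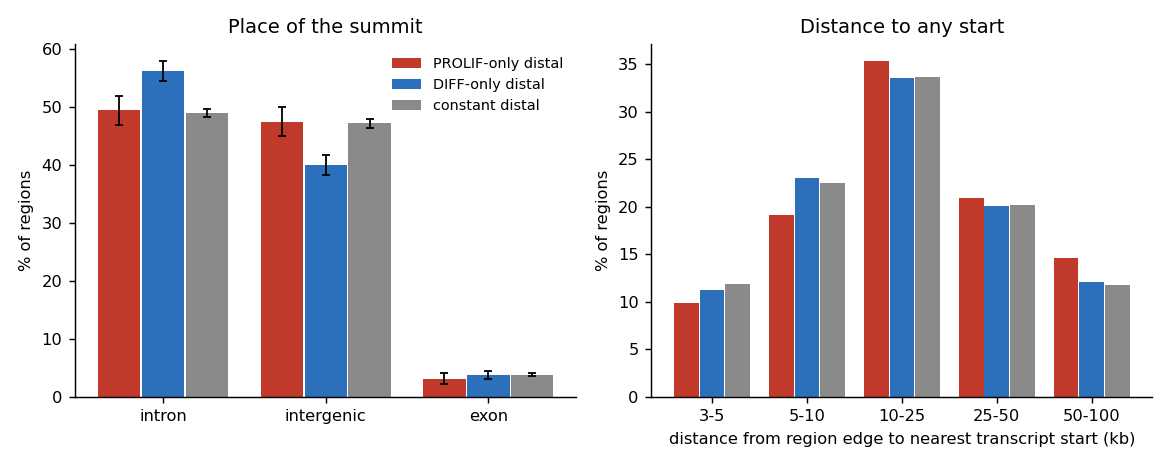
Percent of PROLIF-only, DIFF-only and constant distal regions (y axes) by place of the summit, with 95% exact binomial intervals as error bars, and by distance from the region's edge to the nearest transcript start in kb. Introns held 49.4%, 56.2% and 49.0%, and 35.4%, 33.6% and 33.6% lay 10 to 25 kb from the nearest transcript start.

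Members were spread over every autosome, from 44.0 per 100 Mb on chromosome 19 to 75.2 on chromosome 1, which held 147. As a share of the distal regions of a chromosome they ran from 1.53% on chromosome 12 to 2.501% on chromosome 6, and chromosome 1, with 9440 distal regions, was second lowest at 1.56%. That place depended on the denominator. As a share of distal regions with a peak in all 3 PROLIF libraries, chromosome 1 stood at 5.65%, above chromosomes 8, 12, 17 and 19. This share ran from 4.44% on chromosome 12 to 7.55% on chromosome 3. The nearest DIFF summit lay a median of 7513 bp from a member. It was within 1 kb for 100 members (6.51%), within 10 kb for 921 (60%) and over 50 kb away for 64 (4.17%). For DIFF-only regions and PROLIF summits these values were close, with a median of 7958 bp, 5.00% within 1 kb, 58.2% within 10 kb and 4.07% over 50 kb away.

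Few members stood close to each other. Linking neighbours up to 50 kb apart gave 86 chains of 2 and 4 chains of 3, holding 184 members (11.99%, interval 10.4 to 13.7). DIFF-only regions had 22.6% in 326 chains, but there were more of them, which by itself shortens the gaps: the median gap was 907 kb for members and 372 kb for DIFF-only regions. Of the 90 chains 71 (78.9%) had a single nearest gene and 34 were wholly intronic. An AP-1 motif stood in every region of 8 chains and in none of 47. *Sox5*, a SOX factor of neural and glial development, carried 3 members in its introns over 96.2 kb at chr6:144513829-144610035. Their folds were 5.79, 5.08 and 3.64 for the first, 6.04, 4.82 and 4.16 for the next and 5.79, 4.31 and 4.42 for the last. Most were near the member median. The first region was lower in PROLIF replicate 4, at percentile 14.6 against a member median of 31.0. The other chains of 3 lay at *Lyrm1* and *Dnah3* (65.2 kb), *Srd5a2* and *Memo1* (75.2 kb) and *Mctp2* (51.2 kb).

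AP-1 was the motif that set the members apart most among the 14 searched. Each was sought on both strands within 100 bp of the best summit, 201 bp in all, as a plain string of letters. TGAGTCA stood in 442 of 1535 members, 28.8% (26.5 to 31.1), against 2.73% of DIFF-only, 6.08% of constant and 5.78% of all merged regions. The 12 windows printed next are from members at genes of the fixed lists and show 41 bases on the strand that reads TGAGTCA, the match in capitals.
*Ptpn14* (chr1:189761869-189761909, minus strand): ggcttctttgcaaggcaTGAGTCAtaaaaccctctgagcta
*Tnc* (chr4:64084148-64084188, plus strand): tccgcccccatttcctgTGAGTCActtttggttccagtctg
*Cdh11* (chr8:102627414-102627454, plus strand): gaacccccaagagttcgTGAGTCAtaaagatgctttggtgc
*Adamts9* (chr6:93267099-93267139, minus strand): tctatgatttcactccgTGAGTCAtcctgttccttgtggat
*Myc* (chr15:62190392-62190432, minus strand): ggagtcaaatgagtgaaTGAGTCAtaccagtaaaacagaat
*Id3* (chr4:136117211-136117251, plus strand): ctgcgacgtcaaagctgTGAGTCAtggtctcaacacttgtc
*Ptk2* (chr15:73268459-73268499, minus strand): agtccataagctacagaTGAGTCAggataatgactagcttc
*Fn1* (chr1:71893728-71893768, minus strand): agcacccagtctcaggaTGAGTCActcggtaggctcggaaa
*Areg* (chr5:91145252-91145292, minus strand): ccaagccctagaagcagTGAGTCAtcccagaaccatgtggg
*Phlda1* (chr10:111576136-111576176, minus strand): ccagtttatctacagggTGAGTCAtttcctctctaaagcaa
*Tgfbr2* (chr9:116267630-116267670, minus strand): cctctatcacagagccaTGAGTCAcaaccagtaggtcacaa
*Col18a1* (chr10:77206869-77206909, plus strand): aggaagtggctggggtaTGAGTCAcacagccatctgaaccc
The match lay between 79 bp from the summit in the window at *Tnc* and 0 bp in that at *Tgfbr2*. Over all members with AP-1, the nearest match lay a median of 32 bp from the summit, and for 152 (34.4%) it lay within 20 bp. There were 391 members with 1 match, 43 with 2 and 8 with more.

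**Figure D3:**
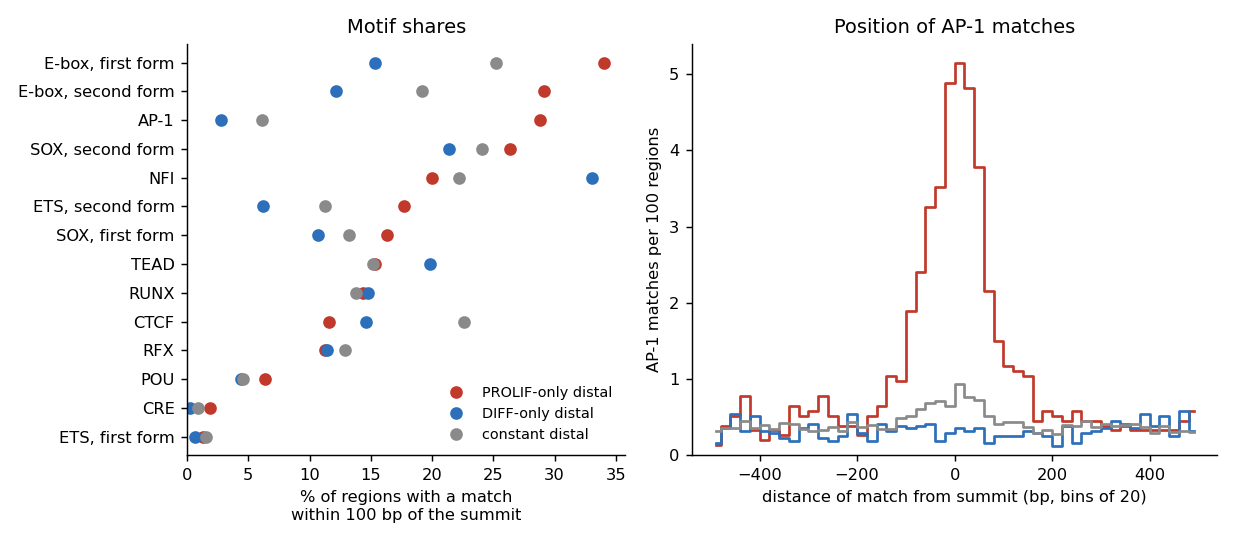
Left, percent of PROLIF-only, DIFF-only and constant distal regions (points) with each motif within 100 bp of the summit; right, AP-1 matches per 100 regions by distance from the summit in bp. AP-1 is at 28.8%, 2.73% and 6.08%, and its matches in members are most frequent at the summit, with 5.15 per 100 regions in the 20 bp after it against 0.353 and 0.935. E-box first and second form are CAGCTG and CAGATG, ETS CCGGAAG and CAGGAAG, and SOX ACAATG and ACAAAG.

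Both E-boxes were also more frequent in members. CAGCTG stood in 34.1% (31.7 to 36.5), against 15.3% of DIFF-only, 25.2% of constant and 19.6% of all regions. CAGATG stood in 29.1% (26.9 to 31.5), against 12.2%, 19.2% and 17.3%. The ETS motif CAGGAAG was in 17.7%, 6.22%, 11.2% and 10.2%. Among SOX motifs ACAATG was in 16.3% of members (14.5 to 18.2), against 10.7% of DIFF-only, 13.2% of constant and 11.6% of all regions. ACAAAG was in 26.4% (24.2 to 28.7), against 21.4%, 24.1% and 20.2%, so it was close to the constant regions.

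The NFI motif TTGGCA stood in 20.0% of members (18.0 to 22.1) and 33.1% of DIFF-only regions, with 22.2% in constant and 18.4% in all regions. The TEAD motif GGAATG was in 15.3% and 19.8%, with 15.2% in constant regions. RUNX, TGTGGT, was in 14.3% and 14.7%, and RFX, GTTGCC, in 11.3% and 11.4%. The CTCF motif AGGNGGC was in 11.6% and 14.6%, against 22.6% of constant regions. The CRE motif TGACGTC was higher in members, at 1.82% (1.22 to 2.63) against 0.257% of DIFF-only and 0.859% of constant regions. So was the POU motif ATGCAAA, at 6.38% (5.21 to 7.73) against 4.36% and 4.57%. The ETS motif CCGGAAG was in 1.30%, 0.674% and 1.55%. A match is a string of letters and not a bound site.

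The AP-1 share followed how the region was called in the libraries. It was 28.8% with a peak in all 3 PROLIF libraries and no DIFF library, and 16.7%, 11.3% and 6.08% with a peak in 1, 2 and 3 DIFF libraries. With no DIFF peak it was 16.9% for 2 PROLIF libraries and 9.25% for 1. Measured from each PROLIF library's own summit it was 28.7%, 28.1% and 28.1% in members, and from each DIFF library's own summit between 2.63% and 2.86% in DIFF-only regions. With DIFF replicate 4 left out, the library with the highest background, the share in members was 24.1%.

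**Figure D4:**
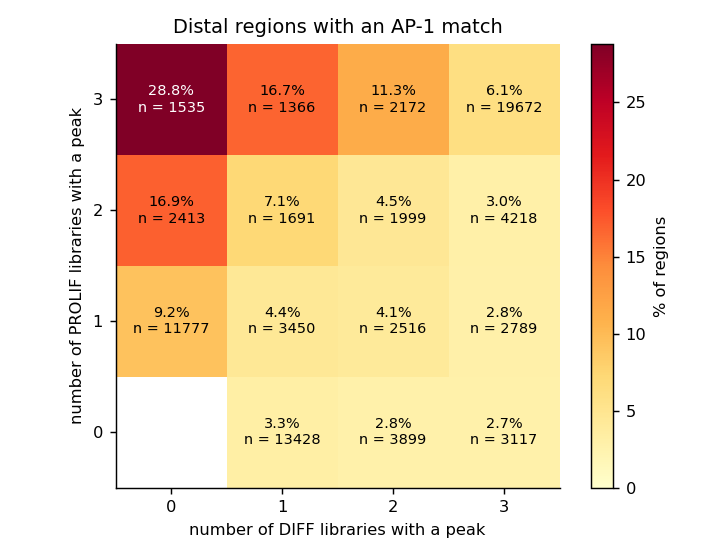
Percent of distal regions with an AP-1 motif within 100 bp of the summit, with the number of regions, by the number of DIFF (x axis) and PROLIF (y axis) libraries with a peak. The share runs from 28.8% with 3 PROLIF and no DIFF libraries to 2.73% with the reverse.

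Among members the share was 35.7% (31.6 to 40.1) in the 512 members ranked highest by lowest percentile, 28.6% in the middle 511 and 22.1% (18.6 to 25.9) in the lowest 512. Median folds were 6.30, 4.82 and 4.68 with AP-1 and 5.52, 4.31 and 4.16 without. By place it was 28.9% in introns, 29.1% between genes and 23.4% in exons, and in chains it was 27.7% against 28.9% for single members. CAGCTG stood in 28.5% of members with AP-1 and 36.3% without, and CAGATG in 26.5% and 30.2%. In all, 220 members had AP-1 alone, 628 an E-box alone, 222 both and 465 neither, so that 69.7% had one or the other, against 28.0% of DIFF-only and 43.2% of constant regions.

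Each member was assigned to the protein-coding gene with the nearest start, which gave 1314 of 20698 autosomal genes (6.35%). Nearness does not show that a region acts on that gene. Of these genes 1124 had 1 region, 162 had 2, 25 had 3 and 3 had 4. They were long, with a median of 66.6 kb against 17.6 kb for all genes. Long genes were not particular to members. For regions inside a protein-coding gene, its median length was 172 kb in members, 148 kb in DIFF-only and 147 kb in constant regions. Of the 1314, 468 (35.6%, and 19.4% of the 2417 genes of DIFF-only regions) were also nearest to a DIFF-only region, and 1089 (82.9%) to a constant one. The genes with 4 regions were *Vrk1*, a nuclear kinase, *Apba2*, a neuronal adaptor that binds the amyloid precursor protein, and *Sox5*. Those with 3 that ranked highest were *Dst*, *Dsel*, *Slitrk6*, *Pkn2*, *Adamts16*, *Tgfb2* and *Elmo1*. All 3 regions of *Dsel*, a dermatan sulfate epimerase-like gene, held AP-1, but the nearest of them lay 1417151 bp from its start. Other counted regions were far from a start of their gene as well, 446295 bp at *Vrk1*, 276431 bp at *Pkn2* and 209566 bp at *Slitrk6*. The 3 regions of *Dst* lay in its introns.

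A gene list is read below against 6.35% of all genes with a member and 11.7% with a DIFF-only region, and lists of long genes have more room for regions. Counts of a list's regions with AP-1 are read against 28.8% of all members. The lists and members were not tested against each other.

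Of 78 matrix protein genes 19 (24.4%) were nearest to a member, with 22 regions, 9 of which held AP-1, and 22 genes were nearest to a DIFF-only region. *Tnc* encodes tenascin C, a matrix protein of the neural stem cell niche, and its region had folds of 11.8, 8.12 and 8.58. The region 239991 bp upstream of *Fn1*, which encodes fibronectin, had folds of 8.19, 5.42 and 5.46. Both held the AP-1 match printed above, and *Tnc* was the higher in each library. Among matrix proteases 8 of 85 genes had a member and 13 a DIFF-only region, with the member at *Adamts9* at 12.6, 7.36 and 7.54. Of the 11 regions of this list 4 held AP-1. Of 68 integrin and adhesion genes 15 had a member, with 19 regions, 3 of which held AP-1, and 18 genes had a DIFF-only region. *Cdh11*, a cadherin, stood at 10.5, 12.7 and 7.28, and *Ptk2*, which encodes focal adhesion kinase, at 7.05, 5.84 and 8.58.

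Of 34 mitogen receptors and ligands 8 had a member, against 13 with a DIFF-only region. Of the 9 regions of this list 1 held AP-1, the one printed above at *Areg*. The intronic region of *Areg*, an EGF receptor ligand, had folds of 9.32, 6.34 and 5.20, and that of *Igf1r*, the IGF-1 receptor, 6.55, 4.82 and 5.98. In the list of ERK feedback genes 3 of 24 had a member: *Phlda1* (2 regions, both with AP-1), *Errfi1*, an inhibitor of the EGF receptor, and *Lrig3*. More genes of this list, 6, had a DIFF-only region. Of 29 cell cycle genes 1 had a member by nearest start, and 2 by the gene holding the summit, while 4 had a DIFF-only region. By nearest start it was *Myc*, with a region 202467 bp downstream, with folds of 14.3, 11.2 and 6.50 and an AP-1 match. That region lay in an intron of a noncoding gene, and the nearest start of any kind was one of *Pvt1*, 11714 bp away. Of the 17 AP-1 and CNC factors themselves *Bach1* and *Bach2* had a member, with AP-1 in 0 of the 2 regions. DIFF-only regions were nearest to 4 of the 17.

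TGF-beta, BMP and Id genes had 12 of 49, the same number as for DIFF-only regions. AP-1 stood in 4 of the 16 regions of this list. The region 67766 bp upstream of *Bmp2*, a BMP ligand, had folds of 12.3, 8.62 and 8.56. *Id3*, an inhibitor of bHLH factors, had 2 upstream regions with AP-1, at 8.13, 6.09 and 6.67 and at 8.05, 6.09 and 5.20. Notch genes had 7 of 27, among them the ligand gene *Dll1* at 8.90, 8.54 and 5.62, the effector *Rbpj* and the target *Hes1*. DIFF-only regions were nearest to 6 Notch genes, and AP-1 stood in 1 of the 7 members. Hippo and TEAD genes had 4 of 23, as many as for DIFF-only regions, with *Ptpn14*, a phosphatase that restrains YAP, at 9.06, 8.68 and 8.45. Wnt genes had 5 of 50, with AP-1 in 0 of the 5 regions, and DIFF-only regions 13. The RUNX and TEA partner list had 3 of 28, *Klf5*, *Klf6* and *Runx1*, each with AP-1, and DIFF-only regions 10.

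**Figure D5:**
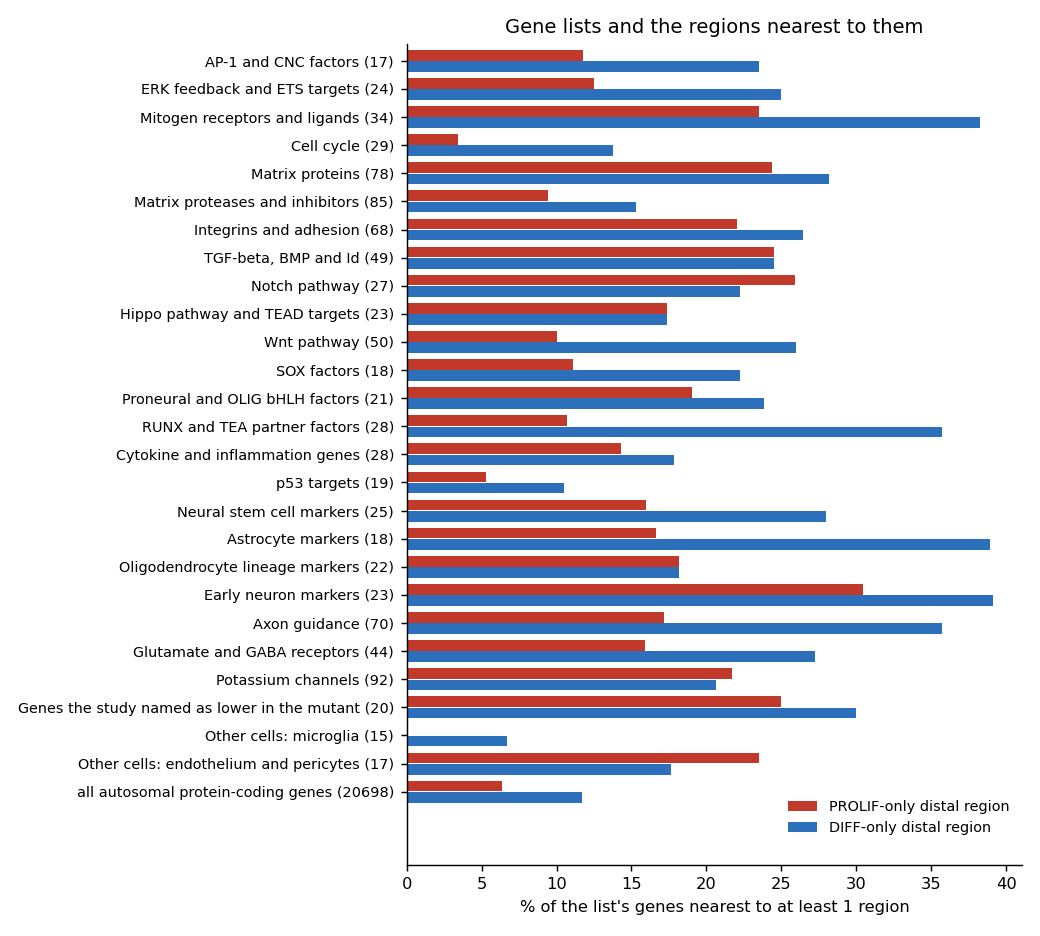
Percent of the genes of the lists shown, each of 15 or more genes (x axis; list size in parentheses) that are nearest to at least 1 PROLIF-only or DIFF-only distal region (bars). Over all autosomal protein-coding genes the shares are 6.35% and 11.7%, and for matrix proteins 19 and 22 of 78 genes.

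Genes of neural lineages were present too. Neural stem cell markers had 4 of 25, *Gli3*, *Hopx*, *Slc1a3* and *Sox9*, and 7 had a DIFF-only region. The region assigned to *Sox9*, a stem cell and astrocyte factor, lay 577450 bp upstream, with folds of 13.6, 9.39 and 9.62. Early neuron markers had 7 of 23, and 9 had a DIFF-only region. Axon guidance genes had 12 of 70, potassium channel genes 20 of 92 with 28 regions, and glutamate and GABA receptor genes 7 of 44. For DIFF-only regions these 3 counts were 25, 19 and 12. Astrocyte markers had 3 of 18 and oligodendrocyte lineage markers 4 of 22, against 7 and 4 with a DIFF-only region. None of 15 microglial genes had a member, 1 of 12 fibroblast and meningeal genes did (*Tbx18*), and 4 of 17 endothelial and pericyte genes did (*Cdh5*, *Erg*, *Pecam1* and *Tek*). DIFF-only regions were nearest to 1, 0 and 3 genes of these lists. Of 20 genes that the study named as lower in the mutant 5 had one (*Arc*, *Grin2a*, *Hopx*, *Rbfox3* and *Syt1*), and of 10 named as higher none did by nearest start and 1 by the gene holding the summit. DIFF-only regions were nearest to 6 of the 20 and none of the 10. The study chose those genes on RNA of this mutant.

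The remaining lists were small: SOX factors had 2 of 18, proneural and OLIG bHLH factors 4 of 21, NFI and RFX factors 2 of 13 (4 by the gene holding the summit), cytokine and inflammation genes 4 of 28, and p53 targets 1 of 19. In the same order 4, 5, 3, 5 and 2 genes had a DIFF-only region.

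Most promoters of the nearest genes had a peak in both states. Of the 1314 genes 1065 (81.1%) had a promoter peak in all 6 libraries, against 80.5% of the genes of DIFF-only regions and 64.4% of all. A PROLIF-only promoter was found at 2 of them, *Fbln2* and *Otol1*, against a background of 0.188% over all genes, and a DIFF-only promoter at 3, against 0.338%.

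For 24 genes, those of the leading regions, the leading genes and the leading chains, the promoter percentile was compared between states by a two-sided exact permutation test, in which 3 against 3 libraries cannot give a p below 0.1. All 24 had a peak in some library and 21 in all 6. For *Agbl1* the promoter stood at 80.8, 82.6 and 81.2 in PROLIF and was 0 (no peak), 11.7 and 20.0 in DIFF, a difference of 71.0. For *Shisa2* it was 88.0, 87.2 and 86.2 against 83.4, 81.1 and 83.5. For *Bcr* it was lower in PROLIF, 73.4, 69.0 and 50.8 against 79.0, 74.3 and 74.3. In these 3 genes the states did not overlap, with an exact permutation p of 0.1 and a Benjamini-Hochberg adjusted value of 0.514 over the 24, so no promoter passed the test. Over 15485 genes whose promoter was called at least once, 4.38% did not overlap with PROLIF higher and 24.3% with DIFF higher. Of the 24 genes 12 were higher in PROLIF by their mean, 9 without PROLIF replicate 1 and 16 with equal list lengths. The same share over all genes is not given here, so this count is not a result about these genes.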

How the data were processed

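Open chromatin was measured by ATAC-seq in 3 PROLIF and 3 DIFF libraries of *Srr2* del/del cultures. Per the methods of the study, the authors trimmed reads with Cutadapt and Trimmomatic, aligned them to GRCm38 with Bowtie2, flagged duplicates in Picard, and ran MACS2 in narrow mode on each library at an FDR of 0.05. Tool versions are not given in the sources used here. The deposited lists give each peak a score, the fold enrichment as a ratio over the local background, and −log10 of the p-value and q-value. Raw reads and counts were not used.

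Peaks on the 19 autosomes were merged by an overlap of 1 bp and annotated with GENCODE M21, whereas the study used another release. The pileup was recovered from fold and −log10 p to within 0.01. Python 3.11.15, pandas 2.3.3, numpy 2.4.6 and scipy 1.17.1 were used, and the steps were tested on simulated data. Members and gene lists were chosen with earlier results of these data known, so shares are described and not tested. Named were the 10 genes with most regions, the 10 regions with the highest lowest percentile, the genes of the 5 largest chains, and in each list the genes with the best-ranked regions, of which some, with 1 list, are not reported here. *Cdh5*, *Otol1*, *Fbln2* and the genes at the distance limits were named for their place at a limit or in a small count. Promoter peaks, within 3 kb of a start, were compared by a two-sided exact permutation test, which measures only the spread between the 3 libraries of each state. The permutation test took the libraries as unpaired. The study reports paired ATAC-seq on the same cultures for PROLIF and DIFF, which may mean pairing with RNA or between states. No source used here says that equal replicate numbers mark the same culture in both states. The lists hold no library totals, so depth is known only through the background pileup.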

Additional observations from a re-analysis of the deposited data

How the results depend on the processing

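The number of regions stayed within 1.5 times of 1535 with stricter q limits, equal or shorter lists, 50% cover and other distance limits, and was 1771 to 2959 with 1 library left out. The share in introns rose from 49.4% to 55.4% when only protein-coding starts counted, and was 48.1% to 49.9% with 1 library left out. The share in chains (11.99%) was 5.73% with a gap of 25 kb, 20.1% with 100 kb, 15.7% with 50% cover, 15.5% with equal list lengths, 10.3% over 5 kb from a start, 9.92% with the strongest 20000 peaks and 14.1% to 19.4% with 1 library left out. With protein-coding starts only it was 13.5%, although the regions fell to 1297. The cause was not tested. The AP-1 share (28.8%) was 24.2% with 50% cover, 26.5% with equal list lengths, 19.9% within 50 bp of the summit, 23.9% with the strongest 20000 peaks and 23.1% to 27.3% with 1 library left out, the lowest without PROLIF replicate 4, and the cause was not tested. With replicates paired by number (the replicate block: 2 or 3 pairs with a peak in PROLIF alone, and no pair with a peak in DIFF alone), 5314 regions were kept, 30.5% of them in chains, 20.3% with AP-1 and 48.2% in introns. Over 19672 constant distal regions, deviations of same-numbered libraries had a Pearson r of 0.072, 0.139 and 0.0616 and of others between −0.0766 and 0.00243, so each library correlated best with its own number. That equal numbers mark a pair is thus a hint from the data, since the study speaks of pairing without tying it to replicate numbers. No named promoter passed the test under any alternative, where the smallest p allowed was 0.1, or 0.25 with the pairing, so this says nothing about stability. The nearest gene and the gene holding the summit gave 1314 and 1299 genes, and the same count in 19 of 30 lists. The lists that moved by over 1.5 times were cell cycle (1 to 2), NFI and RFX factors (2 to 4) and the genes named as higher in the mutant (0 to 1). Depth limits what a missing peak means: a region without a DIFF peak may still be open below the calling threshold.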
